A study of Mus musculus with 6 samples.

Results

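Loss of BAF250A and loss of BRD9 were compared directly in differentiating mouse muscle cells, using the 2 libraries with an shRNA against BAF250A and the 2 with an shRNA against BRD9, which are 4 of the 6 samples of the series. The cells were C2C12, an immortalised mouse myoblast line, stably transfected with the shRNA construct and collected 48 h after a switch to differentiation medium with horse serum and insulin. The remaining 2 libraries, with a scrambled shRNA, had the same treatment and are the reference of both knockdowns. Duplicates are called biological in the series text, but how the cultures were separated is not given, so p-values measure the spread between these libraries, which may be technical. Whether 1 or several clones or shRNA sequences stand behind each group is also not given in the sources used here.

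BAF and ncBAF are 2 forms of the mammalian SWI/SNF enzymes, which use ATP to move or evict nucleosomes. BAF250A, the product of Arid1a, is the large ARID subunit of BAF and is absent from ncBAF, which carries the bromodomain protein BRD9 together with GLTSCR1 or its paralogue. In differentiating myoblasts the transcription factors MyoD and myogenin, with MEF2 proteins, switch on genes for fusion, contraction and excitation, and SWI/SNF enzymes are known to act at such genes. The title of the series asks whether the 2 forms are needed differently in this process.

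For every gene the log2 fold change of BRD9 knockdown was subtracted from that of BAF250A knockdown, so a negative difference means a lower level after loss of BAF250A than after loss of BRD9. Both fold changes are the authors' deposited values against the same controls, and the standard error (SE) of the difference was taken from their 2 standard errors. Of 27179 genes in both tables, 16311 had an adjusted p in each and were tested by a two-sided z test of the difference with Benjamini-Hochberg adjustment. A gene is called different below at an adjusted p under 0.05. Levels are implied group means in normalized counts, computed from a table's mean over its 4 libraries and its fold change. Control levels are those of the BAF250A table. The tables hold no values for single libraries, and the SE stands for the replicate spread. Among the 11496 genes with a mean of 100 or more in both tables, the control levels implied by the 2 tables differed by a median of 0.06 on the log2 scale (5th to 95th percentile 0.04 to 0.10). For the genes called different the range was wider, with a median of 0.08 (-0.06 to 0.29).

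In all, 414 genes (2.54% of those tested) differed between the knockdowns. Of these, 324 (1.99%) were lower and 90 (0.552%) were higher in BAF250A than in BRD9 knockdown. Of 190 tested genes in 7 muscle lists, 72 lay in the lower set and 0 in the higher set. The lists were written with earlier results of these data known, so this count is a description only. They include Cdkn1c and Cap2, which were called lower although both lay above control in each knockdown. Of the 90 higher genes 14 belonged to any of the 40 gene lists, among them 3 of 15 tested retinoid genes. The 324 lower genes had a median log2 difference of -3.79 (quartiles -4.76 and -3.02), and the 90 higher genes one of 3.56 (quartiles 2.95 and 4.59). The smallest difference called was 2.08 in size, and the median SE was 0.76. Smaller differences, such as those of the targeted genes, passed where the errors of the 2 fold changes were taken as correlated.

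**Figure D1:**
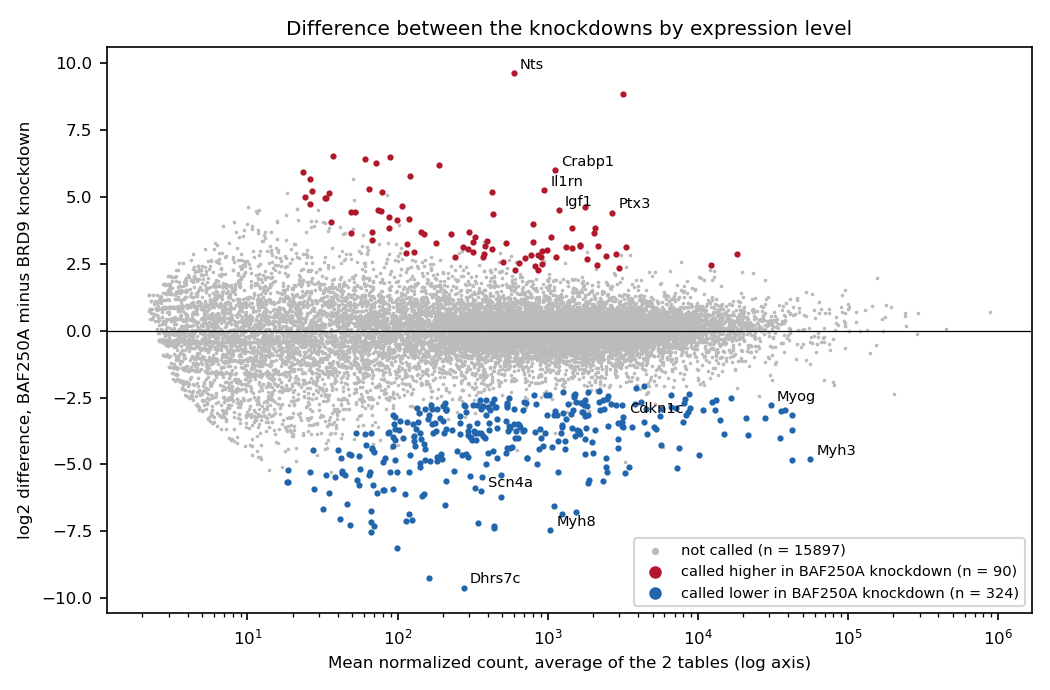
Each point is 1 of the 16311 genes tested, with the mean normalized count (log axis) against the log2 difference, BAF250A minus BRD9 knockdown. Blue points (324) were called lower and red points (90) higher in BAF250A knockdown, and the highest levels among the blue points include Myh3 and Myog.

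Each difference is made of 2 fold changes against scrambled shRNA, which share their controls and are therefore given side by side only. In the authors' deposited BAF250A table, 1812 of the genes tested (11.1%) were higher and 2885 (17.7%) lower than control by the Wald test. In the authors' deposited BRD9 table, 862 (5.28%) were higher and 1604 (9.83%) lower. For the 324 lower genes the median log2 fold change was -3.30 with BAF250A and 0.54 with BRD9 in the authors' deposited tables. In 293 of them the BAF250A value was below -1, while the BRD9 value was within 1 of control in 149, above 1 in 130 and below -1 in 45. For the 90 higher genes the medians were 3.12 with BAF250A and -0.80 with BRD9 in the authors' deposited tables. Their BAF250A value was above 1 in 74, and their BRD9 value was below -1 in 40, within 1 of control in 28 and above 1 in 22.

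Size factors differed between control and knockdown libraries. Read from genes with a single read, they were 0.801 and 0.773 in BAF250A knockdown and 0.841 and 0.782 in BRD9 knockdown, against 1.58 and 1.09 in the controls of the BAF250A table. Total counts per library were not analysed here. Myotube markers were abundant in the controls, with implied levels of 64009 for embryonic myosin heavy chain Myh3, 29094 for Myog and 265650 for skeletal actin Acta1. The bone marker Ibsp and the fat marker Adipoq had no counts in either table, and the blood cell marker Ptprc, the macrophage marker Adgre1 and the epithelial marker Epcam had means under 1. Other members of these marker lists were present, with table means of 2066 and 1603 for Runx2 (bone), 106 and 146 for Pparg and 45.4 and 12 for Fabp4 (fat), and 25.7 and 19.7 for Csf1r (macrophage). The fibroblast marker Pdgfra had implied levels of 1766 in BAF250A knockdown, 540 in BRD9 knockdown and 275 in controls. Its difference of 1.75 ± 0.72 was not called (adjusted p 0.288, z test). Of the other fibroblast markers, Cd248 stood at 4945, 3566 and 1893 in the same order, and Dpt went the other way at 33.2, 103 and 41.1. Neither was called, and Thy1 was not tested. Of 11 tested markers of macrophages, endothelium, epithelium and neurons, 2 were called, both neuronal cytoskeleton genes lower in BAF250A knockdown (Map2 at -5.42 ± 1.02 and Tubb3 at -3.39 ± 0.68, log2 difference ± SE). The part of other cell types in the muscle differences was not tested. In bulk RNA, fewer differentiated cells and less RNA per cell cannot be told apart.

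The targeted genes had differences of opposite sign that did not pass the test. Arid1a (gene 93760, chr4:133679008-133756769 of GRCm38) had implied levels of 1253 in BAF250A knockdown, 4580 in BRD9 knockdown and 4858 in controls. Its log2 difference was -1.79 ± 0.71, with a 95% interval from -3.18 to -0.40 and an adjusted p of 0.246 by the z test with Benjamini-Hochberg adjustment. Brd9 (gene 105246, chr13:73937801-73960895) had levels of 1024 in BAF250A knockdown, 311 in BRD9 knockdown and 916 in controls. Its difference was 1.76 ± 0.70 (0.40 to 3.12), with an adjusted p of 0.242. Taking the errors of the 2 fold changes as correlated at 0.5, the value that shared controls give when all groups vary alike, gave adjusted p of 0.00815 for Arid1a and 0.00864 for Brd9 by the same test. The sign of both tables was read from these genes, so they are no independent check of it. None of 16 tested shared SWI/SNF subunits, 4 PBAF-specific, 5 BAF-specific or 3 ncBAF-specific genes was called by the z test, with 0 shared and 0 PBAF-specific genes at an unadjusted p under 0.05. With 2.54% of all genes tested called, 0 calls among so few genes say little. Among the shared subunits the log2 differences ran from -0.79 (Smarcd3, interval -2.15 to 0.58) to 0.56.

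The sarcomere thick filament had the lowest median difference of the 40 gene lists. Of 25 tested genes of the thick filament and M-band, 20 were lower and 0 higher in BAF250A than in BRD9 knockdown, and all 25 differences were below 0. The list's median difference was -3.79, against -0.0023 over all genes tested, and its median fold change was -3.56 with BAF250A and 0.07 with BRD9 in the authors' deposited tables. Myh3, the myosin heavy chain of embryonic muscle, stood at 3070 in BAF250A knockdown, 89395 in BRD9 knockdown and 64009 in controls, a difference of -4.79 ± 0.68 (adjusted p 1.49e-09, z test). Myh8, the perinatal myosin heavy chain, stood at 15.2, 3056 and 505 in the same order, a difference of -7.45 ± 0.86. The fast myosin gene Myh4 stood at 3.07, 504 and 615 (-7.30 ± 0.95). In each of these genes BAF250A knockdown lay below control, whereas BRD9 knockdown lay near control for Myh3 and Myh4 and above it for Myh8. The myosin genes share sequence, with 11.7% of sampled 31-base words of Myh3, 19.3% of Myh8 and 31.2% of Myh4 found in another gene, so their separate values are uncertain. Unc45b, a myosin chaperone with no shared words, stood at 145 in BAF250A and 6134 in BRD9 knockdown (-5.33 ± 0.74), and Ttn, the molecular spring titin, also with none, at 1178 and 10980 (-3.14 ± 0.74).

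In the thin filament and Z-disc list, 17 of 38 tested genes were lower and 0 higher, with a median difference of -2.32. Actn2, which cross-links actin at the Z-disc, stood at 28.1 in BAF250A knockdown, 3761 in BRD9 knockdown and 566 in controls (-6.87 ± 0.84, adjusted p 1.05e-12, z test). The knockdowns thus lay on opposite sides of control for Actn2. Tcap, which caps titin, stood at 5.07, 178 and 188 (-5.08 ± 1.00), and Myoz2, a calcineurin-binding Z-disc gene, at 71.8, 1283 and 1654 (-4.11 ± 0.82). Cap2, an actin-monomer binding protein, was above control in both knockdowns, by 1.69 with BAF250A and 6.01 with BRD9 in the authors' deposited tables. Its negative difference of -4.32 ± 0.82 therefore came from a higher level with BRD9, 3486 against 142. Actc1, the cardiac actin that developing muscle also uses, stood at 7876 with BAF250A, 114108 with BRD9 and 22552 in controls (-3.72 ± 0.70).

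**Figure D2:**
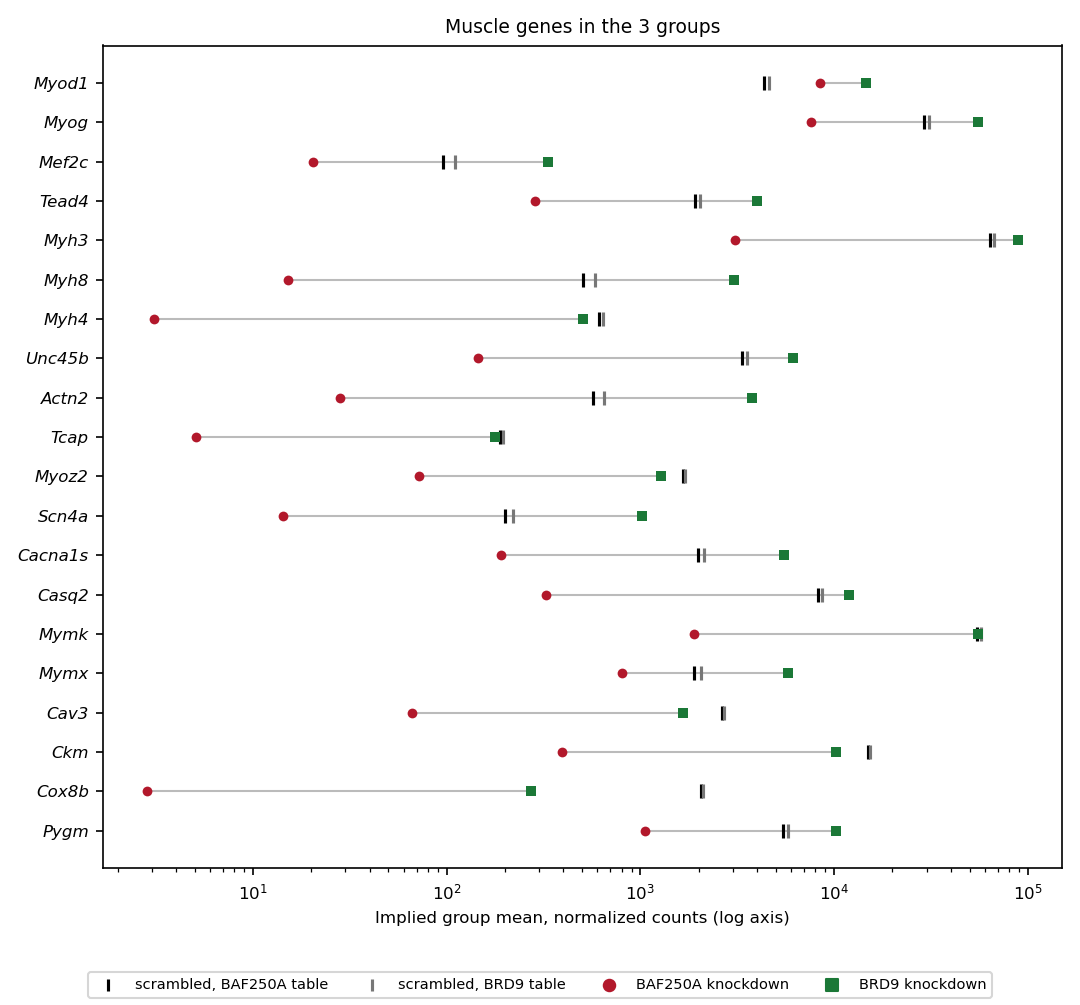
Implied group means of muscle genes in normalized counts (log axis), with red circles for BAF250A knockdown, green squares for BRD9 knockdown and ticks for the scrambled control as implied by each table. The BAF250A point is the lowest of the groups in each gene except Myod1, at 3.07 for Myh4 and 3070 for Myh3.

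Excitation and calcium handling differed in the same direction. Of 36 tested genes for coupling, calcium release and the nerve-muscle synapse, 13 were lower, 0 were higher and 35 had a difference below 0 (median -2.35). With errors correlated at 0.5 the lower count was 23. Scn4a, the muscle sodium channel, stood at 14.3 in BAF250A knockdown, 1014 in BRD9 knockdown and 199 in controls (-6.0 ± 0.83). The calcium store protein gene Casq2 stood at 327, 11888 and 8265 (-5.12 ± 0.73). Cacna1s, the voltage sensor of the T-tubule, stood at 191, 5529 and 1988 (-4.75 ± 0.73), and its partner, the release channel gene Ryr1, at 796, 10800 and 4544 (-3.67 ± 0.68). The inward rectifier Kcnj12 stood at 6.50, 204 and 84.2 (-4.83 ± 1.13). All 5 had implied levels below control with BAF250A. Their BRD9 levels were above control, but in the authors' deposited BRD9 table only Scn4a passed the Wald test among them. Among acetylcholine receptor subunits, Chrnd had a difference of -2.71 ± 0.71 and Chrng, the embryonic subunit, one of -2.97 ± 0.76.

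Fusion genes were divided. Of 27 tested, 8 were lower and 0 higher, but the list's median difference was only -0.23. Mymk, encoding the membrane protein myomaker needed for fusion, stood at 1889 in BAF250A knockdown, 55554 in BRD9 knockdown and 54855 in controls (-4.82 ± 0.75, adjusted p 8.76e-08, z test). Its level in BRD9 knockdown was thus close to control, with a log2 fold change of -0.04 (SE 0.55) in the authors' deposited table. Mymx, which encodes the fusion peptide myomixer, stood at 802, 5748 and 1890 (-2.72 ± 0.81, adjusted p 0.0348, z test). Neither knockdown passed the Wald test for Mymx, with adjusted p of 0.0818 (BAF250A) and 0.0729 (BRD9) in the authors' deposited tables, so only their difference was called. Cav3, the muscle caveolin, stood at 66.1, 1658 and 2633 (-4.61 ± 0.80). Itgb1bp2, the muscle chaperone melusin, stood at 130, 4631 and 4512 (-5.10 ± 0.80).

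Differences among the regulators ran from -4.33 to 2.90, with 10 of 28 lower and 0 higher. Myog, encoding myogenin, stood at 7587 in BAF250A knockdown, 55017 in BRD9 knockdown and 29094 in controls, a difference of -2.77 ± 0.78 (adjusted p 0.0182, z test). Under Bonferroni adjustment its call was lost, as were those of Mymx, Mef2c, Kcnj12, Pygm, Mb, Sntb1 and Cdkn1c. Mef2c, a partner of the MyoD family, stood at 20.4, 334 and 96.2 (-3.83 ± 0.99), and Tead4, a TEA-domain factor of muscle genes, at 285, 4006 and 1914 (-3.72 ± 0.71). Myod1 behaved otherwise, with levels of 8462 in BAF250A knockdown, 14666 in BRD9 knockdown and 4321 in controls. Its difference of -0.70 ± 0.71 (95% interval -2.08 to 0.68) was not called. The titin-associated gene Ankrd2 had a difference of -4.33 ± 0.85 and Lmod3, an actin nucleator of the thin filament, one of -3.86 ± 0.68.

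In muscle energy metabolism 5 of 22 tested genes were lower and 0 higher (median -0.78). Ckm, the muscle creatine kinase that buffers ATP, stood at 396 in BAF250A knockdown, 10267 in BRD9 knockdown and 14901 in controls (-4.66 ± 0.80). Cox8b, a cytochrome oxidase subunit of striated muscle, stood at 2.84, 274 and 2056 (-6.57 ± 1.09). It fell in both knockdowns, to log2 fold changes of -9.50 with BAF250A and -2.93 with BRD9 in the authors' deposited tables. Pygm, which breaks down muscle glycogen, stood at 1062, 10228 and 5461 (-3.18 ± 0.78), and the oxygen store gene Mb at 698, 4015 and 2630 (-2.45 ± 0.73). The dystrophin complex list had 2 of 17 genes lower, which were Sntb1, a syntrophin adaptor (-3.64 ± 0.81), and Trim54 (-3.70 ± 0.78). Trim54 is a muscle RING finger protein that was placed in this list but is not a subunit of the complex. With errors correlated at 0.5, 1 gene of the energy list was called higher.

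**Figure D3:**
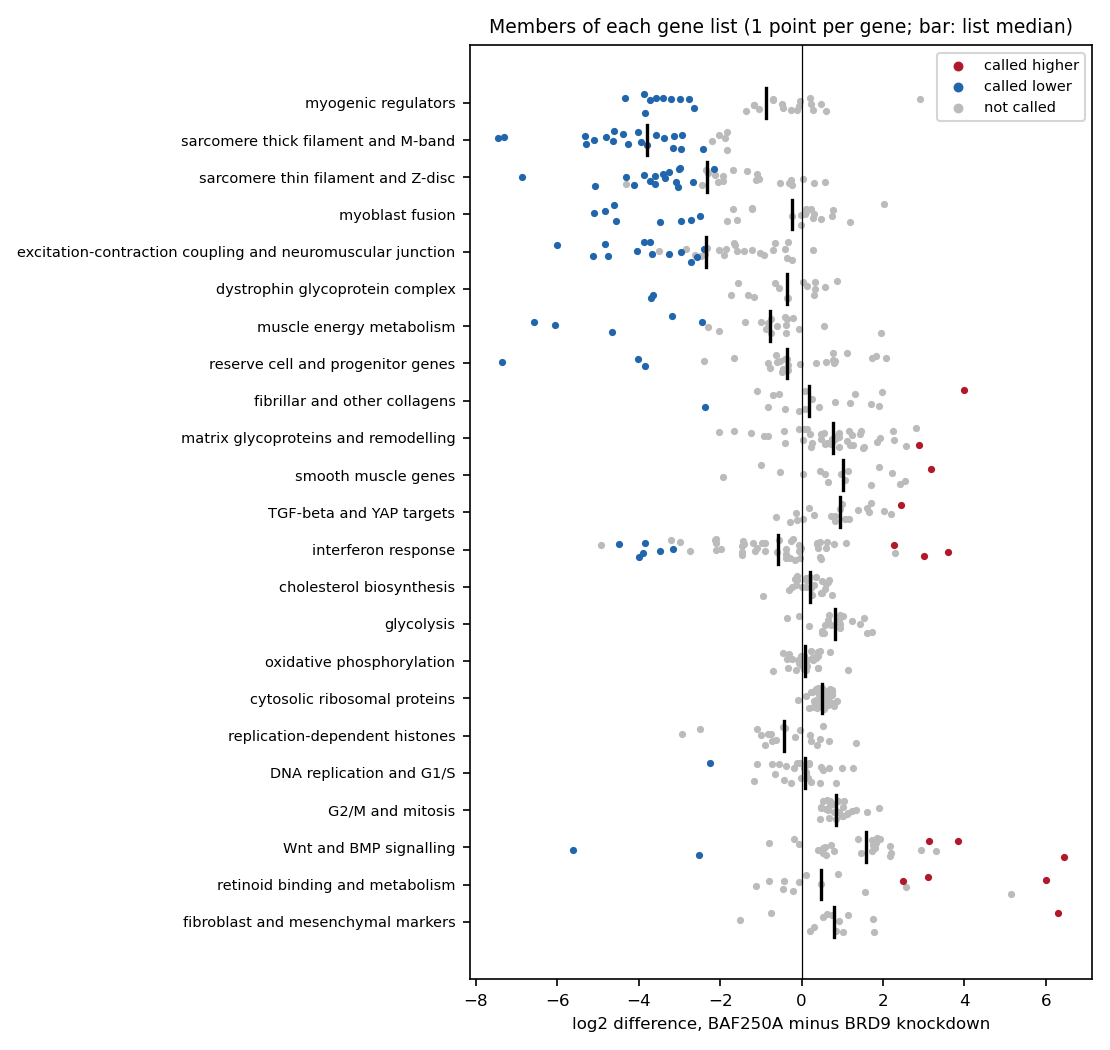
Log2 difference (BAF250A minus BRD9 knockdown) of each tested member of a gene list, with 1 point per gene, blue where called lower, red where called higher and grey where not called. Black bars mark list medians, which lie at -3.79 for the thick filament and 0.21 for cholesterol biosynthesis.

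Some negative differences came with levels far above control in BRD9 knockdown. Pax7, the marker of muscle stem and reserve cells, stood at 55.8 in BAF250A knockdown, 1069 in BRD9 knockdown and 47.1 in controls (-4.02 ± 0.85). Its level in BAF250A knockdown was thus near control. The Notch target Heyl stood at 307, 4957 and 568 (-3.84 ± 0.68). Msc, a repressor of MyoD targets, lay below control in both knockdowns, at 1.13, 190 and 774 (-7.36 ± 1.25). These were the 3 called among 27 tested reserve cell and progenitor genes, whose median difference was -0.37. Cdkn1c, the CDK inhibitor p57, rose in both knockdowns, by 6.49 with BAF250A and 9.71 with BRD9 in the authors' deposited tables. It stood at 1013 with BAF250A, 11641 with BRD9 and 11.2 in controls, a difference of -3.21 ± 0.75.

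Some of the genes called lower were neighbours on the chromosome. All 6 genes tested between 67078273 and 67371587 on chromosome 11 of GRCm38 were lower in BAF250A than in BRD9 knockdown, namely the myosin heavy chain genes Myh3, Myh2, Myh1, Myh4, Myh8 and Myh13. Each of the 6 shares over 10% of its sampled words with another gene. On chromosome 1, all 5 tested between 134182156 and 134344756 were lower, namely Chil1, Mybph, Adora1, Myog and Ppfia4. Mybph encodes a myosin-binding protein and Adora1 an adenosine receptor. On chromosome 2, all 4 tested between 27021363 and 27183204 were lower, namely Slc2a6, Mymk, Adamtsl2 and Dbh. These windows were bounded by called genes no more than 100000 bases apart, so the counts are descriptions. In all, 64 of the 324 lower genes fell in 26 such groups and 8 of the 90 higher genes in 4. The share for other genes tested was not computed, and a larger set gathers more neighbours. These counts therefore do not show that called genes cluster or that the 2 sets differ in this.

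Promoters of called genes were read from the RefSeq table of GRCm38.p6, which gives 250 bases before to 50 after a start site for 12004 of the genes tested and 297 of those called. CAGCTG, an E-box of the kind bound by MyoD-family proteins, is its own reverse complement and was searched on both strands. It occurred in 33.2% of 235 windows of lower genes, 38.2% of the 55 that belong to the muscle lists, and 19.4% of 62 windows of higher genes. Of all genes tested with a window 15.5% held it, as did 16.3% of all 32851 windows in the table. The TEAD-type motif CATTCC, searched on both strands, occurred in 19.6% of windows of lower genes, 27.3% of the 55 in the muscle lists, 12.9% of higher genes and 12.3% of genes tested. TGACTCA, the AP-1 site, occurred in 5.53%, 9.09%, 4.84% and 3.92% in the same order. In the 55 muscle windows the share of each of the 3 motifs was thus above that in genes tested. A match describes these letters only and does not show binding. Windows of 4 lower muscle genes from different groups are shown with CAGCTG in capitals, 5′ to 3′ in the direction of the gene, chosen after their motifs and values were seen.

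Myh4 (chr11:67237562-67237861, plus strand): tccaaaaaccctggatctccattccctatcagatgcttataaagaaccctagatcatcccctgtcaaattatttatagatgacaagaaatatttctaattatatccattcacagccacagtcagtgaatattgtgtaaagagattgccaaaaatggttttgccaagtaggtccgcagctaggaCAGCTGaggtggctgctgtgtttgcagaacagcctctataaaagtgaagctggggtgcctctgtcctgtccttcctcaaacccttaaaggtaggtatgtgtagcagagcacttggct
Cox8b (chr7:140900397-140900696, minus strand): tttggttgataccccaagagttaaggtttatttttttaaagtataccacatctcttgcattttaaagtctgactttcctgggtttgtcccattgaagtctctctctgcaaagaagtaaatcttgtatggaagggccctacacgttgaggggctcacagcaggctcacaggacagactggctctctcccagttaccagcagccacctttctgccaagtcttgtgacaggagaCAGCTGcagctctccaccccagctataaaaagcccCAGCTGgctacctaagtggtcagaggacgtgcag
Cacna1s (chr1:136052561-136052860, plus strand): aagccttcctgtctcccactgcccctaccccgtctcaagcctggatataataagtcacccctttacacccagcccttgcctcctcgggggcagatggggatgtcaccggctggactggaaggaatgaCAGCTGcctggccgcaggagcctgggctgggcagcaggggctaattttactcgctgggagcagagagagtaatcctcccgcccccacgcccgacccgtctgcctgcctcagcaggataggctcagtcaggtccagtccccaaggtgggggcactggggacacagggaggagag
Myoz2 (chr3:123034938-123035237, minus strand): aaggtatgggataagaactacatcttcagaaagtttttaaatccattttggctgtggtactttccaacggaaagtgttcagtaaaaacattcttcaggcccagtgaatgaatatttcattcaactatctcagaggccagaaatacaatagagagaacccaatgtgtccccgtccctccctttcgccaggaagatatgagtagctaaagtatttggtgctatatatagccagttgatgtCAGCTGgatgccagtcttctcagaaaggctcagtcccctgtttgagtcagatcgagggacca

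The match lies 67 bases before the start site in Myh4, 123 before in Cacna1s and 12 before in Myoz2, and Cox8b has matches on both sides of the start. Windows of Myh8, Myh3, Scn4a, Actn2, Unc45b, Casq2 and Myog held no CAGCTG, and their differences ran from -2.77 to -7.45.

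Among the 90 higher genes were secreted signals and enzymes. Bmp4, a ligand that opposes myogenic differentiation, stood at 4802 in BAF250A knockdown, 333 in BRD9 knockdown and 336 in controls (3.84 ± 0.74, adjusted p 4.66e-05, z test). The insulin-like growth factor gene Igf1 stood at 4372, 188 and 94.2 (4.50 ± 0.84). Ptx3, a secreted pattern recognition protein, stood at 10045, 472 and 102 (4.42 ± 0.70). In Bmp4 and Igf1 the BRD9 level did not pass the Wald test against control in the authors' deposited table, whereas Ptx3 rose in both. Il1rn, the interleukin-1 receptor antagonist, stood at 3284, 83.0 and 211 (5.27 ± 0.81), and Enpp2, which makes lysophosphatidic acid, at 5465, 219 and 727 (4.62 ± 0.81).

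Of the Wnt and BMP list 3 of 30 tested genes were higher and 2 lower, with a median of 1.59. Its higher members included Bmp4 and the activin subunit Inhba (3.13 ± 0.77). Inhba stood at 1885 with BAF250A, 223 with BRD9 and 1583 in controls, so its difference came from a lower level in BRD9 knockdown. The lower members were Wnt7b (-5.62 ± 0.84), at 9.96 with BAF250A, 503 with BRD9 and 4385 in controls, and Wnt9a (-2.52 ± 0.73).

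Retinoid genes had 3 of 15 tested higher and 0 lower (median 0.48). Crabp1, a cytosolic retinoic acid binding protein, stood at 4374 in BAF250A knockdown, 72.5 in BRD9 knockdown and 2.52 in controls (6.0 ± 1.13). Dhrs3, a retinal reductase, stood at 2799, 500 and 188 (2.49 ± 0.76, adjusted p 0.046, z test). Its call was lost without a filter on low values (0.0572) and with the shrinkage of the fold changes undone (0.0541), by the same z test. It was also lost under Bonferroni adjustment.

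**Figure D4:**
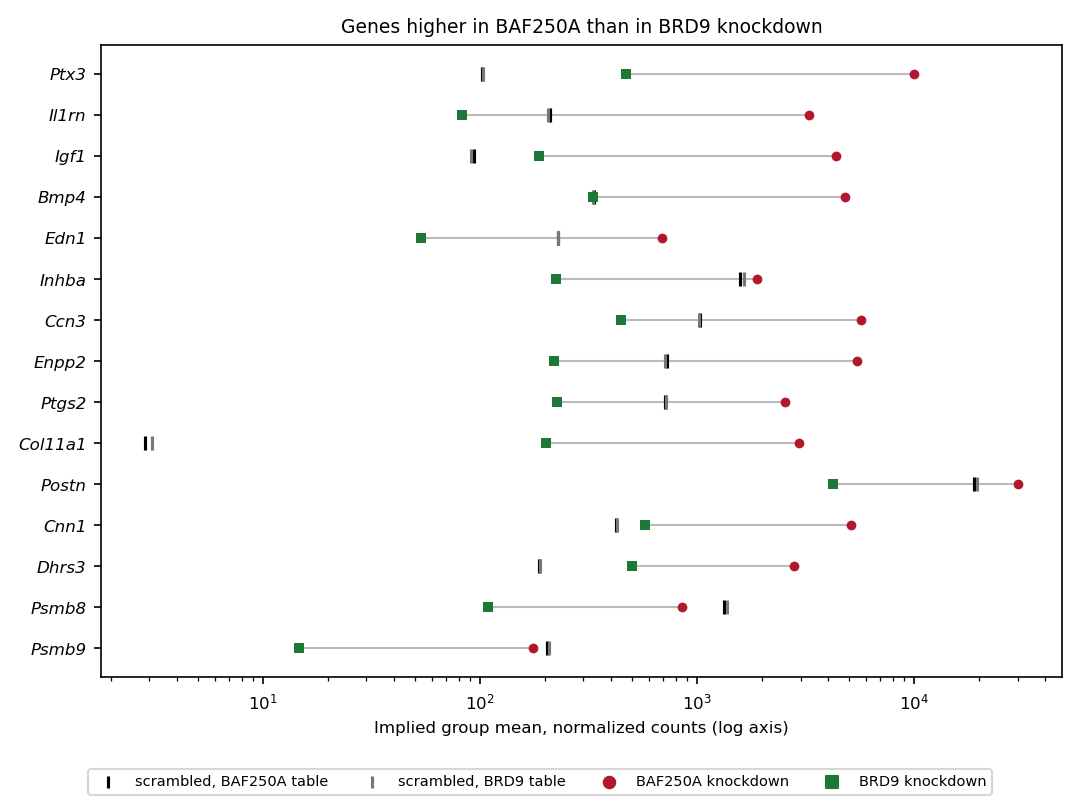
Implied group means in normalized counts (log axis) of genes called higher in BAF250A than in BRD9 knockdown, with red circles for BAF250A knockdown, green squares for BRD9 knockdown and ticks for the control in each table. Ptx3 and Igf1 lie above control in BAF250A knockdown (10045 and 4372), whereas Psmb8 and Psmb9 lie below control in BRD9 knockdown (109 and 14.7).

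Most differences in the matrix, smooth muscle and fibroblast lists were above 0, with few calls. Over all genes tested 0.552% were called higher and 1.99% lower in BAF250A than in BRD9 knockdown. Of 43 tested matrix glycoprotein and remodelling genes 35 had a difference above 0 (median 0.77), but Postn alone was called. Postn, the matricellular protein periostin, stood at 30240 in BAF250A knockdown, 4248 in BRD9 knockdown and 18995 in controls (2.87 ± 0.87). Of 16 smooth muscle genes 13 were above 0 (median 1.02), and Cnn1, the actin-binding protein calponin, was the 1 called, at 5149, 575 and 424 (3.17 ± 0.79). Among 21 TGF-beta and YAP targets 17 were above 0 (median 0.95) and 1 was called higher. With errors correlated at 0.5 10 genes of the matrix list were higher and 2 lower, 5 smooth muscle genes were higher and 1 lower, and 5 TGF-beta and YAP targets were higher and 0 lower. Of 18 collagens, 14 rose with BAF250A and 15 with BRD9 in the authors' deposited tables, with medians of 2.24 and 2.15. Over all genes tested 11.1% rose with BAF250A and 5.28% with BRD9. Between the knockdowns their median difference was 0.18, and Col11a1 was higher (3.98 ± 1.02) and Col5a3 lower (-2.37 ± 0.68) in BAF250A than in BRD9 knockdown. Col11a1 stood at 2966, 202 and 2.86, so it was above control in both. Of 14 fibroblast and mesenchymal markers 12 were above 0 (median 0.80) and 1 was called, the forkhead gene Foxd1 (6.29 ± 1.73), at 282 with BAF250A and 5.38 with BRD9.

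Genes on opposite sides of control were counted where both deposited Wald tests and the difference were called. In 32 genes BAF250A knockdown was below and BRD9 knockdown above control, and in 7 the reverse held. The former include Myh8, Actn2, Scn4a and Map2, and the channel gene Kcnk13, the cytoskeletal gene Add2 and the nuclear pore gene Nup210. Kcnk13 stood at 2.19 in BAF250A knockdown, 357 in BRD9 knockdown and 44.4 in controls (-7.10 ± 1.25). Dhrs7c, a reductase of the muscle sarcoplasmic reticulum, and Shisal1 had the largest negative differences (-9.60 ± 1.35 and -9.24 ± 1.44), but both had implied levels under 1 in BAF250A knockdown and their size is uncertain. The same holds for Nup210 (0.776), and Kcnk13 and Add2 (2.21) were also near the floor there. The reverse group was Nts, Enpp2, Cdsn, Edn1, Arhgef28, Ptgs2 and Nrg1. Nts, the precursor of neurotensin, stood at 2324 with BAF250A, 2.53 with BRD9 and 28 in controls (9.64 ± 1.22, adjusted p 1.03e-11, z test). Its BRD9 level was near the floor, so the size of its difference is uncertain too. Edn1, the vasoconstrictor endothelin, stood at 693, 53.8 and 229 (3.69 ± 0.92), and the prostaglandin synthase gene Ptgs2 at 2537, 226 and 715 (3.50 ± 0.79).

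Interferon-response genes were low in both knockdowns and differed in both directions between them. Of 54 tested, 46 fell with BAF250A and 48 with BRD9 in the authors' deposited tables, with medians of -4.85 and -3.95. Over all genes tested 17.7% fell with BAF250A and 9.83% with BRD9. Between the knockdowns 6 were lower and 3 higher in BAF250A (median difference -0.58), against 1.99% and 0.552% of all genes tested. The antiviral enzyme gene Rsad2 stood at 3.78 with BAF250A, 87.3 with BRD9 and 812 in controls (-4.48 ± 1.00). Its neighbour Cmpk2, a nucleotide kinase, stood at 2.37, 38.9 and 576 (-3.99 ± 1.07). The immunoproteasome subunits behaved in the other direction. Psmb8 stood at 850, 109 and 1336 (3.0 ± 0.86), and Psmb9 at 175, 14.7 and 204 (3.61 ± 1.00). In the authors' deposited BAF250A table neither passed, with values of -0.65 (SE 0.58) for Psmb8 and -0.22 (SE 0.64) for Psmb9. Their values in the authors' deposited BRD9 table, -3.65 and -3.83, did pass.

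Several lists that stood far from control in both knockdowns had no member called between them. Over all genes tested 2.54% were called, so 0 calls in lists of 7 to 43 genes say little about them. Cholesterol biosynthesis genes had medians of 1.87 with BAF250A and 1.69 with BRD9 in the authors' deposited tables, and 0 of 25 differed. Their differences ran from -0.95 (Hsd17b7, 95% interval -2.53 to 0.62) to 0.76 (Stard4, -0.65 to 2.16). Cytosolic ribosomal protein genes had medians of 3.25 and 2.81, again with 0 of 43 called. Replication-dependent histone genes had medians of -4.14 and -4.01 with 0 of 20 called, though H3c14 at -2.49 (-4.11 to -0.87) passed with errors taken as correlated. H3c14 shares 100% of its sampled words with other genes, so its separate value is uncertain. Retrotransposed copies such as Aldoart1 had medians of -12.0 and -11.1 with 0 of 7 called (Aldoart1 difference -0.79, interval -2.39 to 0.81). The authors' deposited tables are the source of these medians. Intervals of this width do not show that the knockdowns act alike on a gene. All 7 retrotransposed copies tested were lower than control by the Wald test in both of the authors' deposited tables. Of all genes tested 17.7% were lower with BAF250A and 9.83% with BRD9. The pseudogene Ndufa11b stood at 1.55 in BAF250A knockdown, 4.48 in BRD9 knockdown and 8745 in controls. Whether such gaps come from the knockdowns or from the control libraries was not tested. Every statement here of a level above, below or near control rests on these same control libraries.

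**Figure D5:**
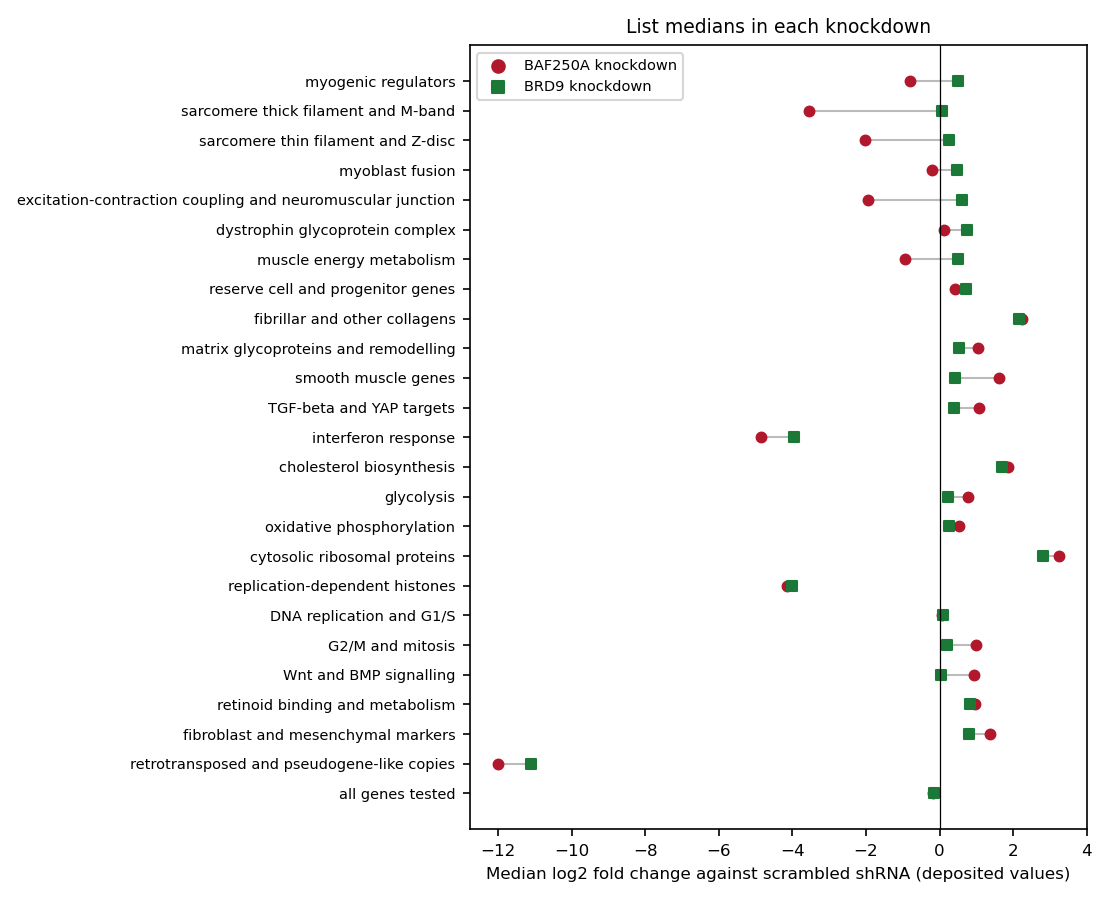
Median log2 fold change against scrambled shRNA of each gene list in the authors' deposited tables, with red circles for BAF250A and green squares for BRD9 knockdown. The thick filament list lies at -3.56 and 0.07, whereas histones (-4.14 and -4.01) and cholesterol biosynthesis (1.87 and 1.69) lie close together.

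Few proliferation genes were called, against 2.54% of all genes tested, so 0 calls in the small lists below say little about them. All 26 G2/M and mitosis genes had a difference above 0 (median 0.84), and 0 were called, with the centromere gene Cenpf at 1.89 (0.32 to 3.47). Of 29 DNA replication and G1/S genes E2f2 alone was called (-2.24 ± 0.69, adjusted p 0.0472 by the z test), and its call was lost without a filter on low values (0.0587), with a mean of at least 100 in both tables (0.05) and under Bonferroni adjustment. Glycolysis genes had 18 of 20 differences above 0 (median 0.83) and 0 calls, the largest being Pfkfb3 at 1.72 (0.41 to 3.04). Oxidative phosphorylation genes had 0 of 37 called and a median of 0.09. All 13 mitochondrially encoded genes had a difference below 0 (median -0.60) and 0 were called. By the z test 0 were also called among 18 Hox genes, 19 polycomb genes and H3K27 demethylases, 17 p53 targets, 15 immediate early genes, 18 stress genes, 10 osteoblast genes and 7 adipocyte genes. With errors correlated at 0.5, calls in these were 3 stress genes higher, 1 p53 target higher and 1 lower, 1 polycomb list gene higher, 1 immediate early gene lower and 1 adipocyte gene higher, Fabp4. Their numbers at an unadjusted p under 0.05 were 4 stress genes, 2 p53 targets, 2 immediate early genes, 1 polycomb list gene, 1 adipocyte gene, 0 Hox genes and 0 osteoblast genes. An unadjusted p under 0.05 was found in 0 cholesterol, ribosomal protein, oxidative phosphorylation and mitochondrially encoded genes, in 2 histone genes, 2 glycolysis genes and 1 G2/M gene, and in 1362 of all genes tested. In this latter set of lists, errors correlated at 0.5 gave 0 calls in the first 4, 2 histone genes lower, 2 glycolysis genes higher and 1 G2/M gene higher.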

How the data were processed

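The 2 comparison tables deposited by the authors, one per knockdown, were joined on the gene identifier. DESeq2, RSEM, Bowtie, StringTie and HISAT and the mm10 build are listed, per the submitters' processing notes, without roles, order or versions. Per the file headers, each table gives a mean normalized count, a signal averaged over 4 libraries. A log2 fold change with its standard error was deposited for each gene, per the file headers. A Wald score was also deposited and was read here as their ratio. The deposited p-value and adjusted p-value belong to that Wald test. Genes with a single control read had a median log2 fold change of -0.192 and -0.18 in the BAF250A and BRD9 tables, far nearer 0 than a ratio of group means, so the fold changes were treated as shrunk, and low implied levels are uncertain.

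The z test of the difference (Python 3.11.15, numpy 2.4.6, scipy 1.17.1, pandas 2.3.3) sums both variances. The shared control error is thus counted although it cancels. It was tested on simulated data first. No count model was run, since no values per library were used.

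The comparison, gene lists and tests were chosen with earlier results of these data known. Named were the targeted genes, Myod1, Myog, Mymk, Mymx, Myh3 and Ckm, per list up to 4 called members of largest difference with a mean of at least 100 in 1 table (where none was called, the 2 largest), the 12 largest differences each way with a mean of at least 100 in both, and the 6 largest each way with opposite signs. Ttn, Actc1, Ryr1, Chrnd, Chrng, Inhba, Nrg1 and the other members of neighbour groups were added after their values were seen. Shared sequence was read from 31-base words of GENCODE transcripts, 1 in 16 sampled. Positions are RefSeq GRCm38.p6, the build of mm10. Alternatives changed the error, centring, null, adjustment, filter, gene set and shrinkage. Some genes that the naming rule picks are not reported here.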

Additional observations from a re-analysis of the deposited data

How the results depend on the processing

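Against 414 called genes (90 higher and 324 lower in BAF250A), taking the errors as correlated at 0.5 gave 1193 (404 and 789), which moved the share of higher calls from 21.7% to 33.9%. An empirical null gave 691 (211 higher), Bonferroni adjustment 123 (13 and 110, 10.6% higher), and requiring a mean of at least 100 gave 271 (45 higher). Undoing the shrinkage, an alternative chosen after seeing the data, gave 390 (70 and 320), and with the correlation 1097 (351 and 746). Centring, a mean of at least 10, no filter, protein-coding genes, little shared sequence and a minimum difference of 1 gave between 393 and 415. Signs could change only by centring or undoing the shrinkage, and no gene of the naming rule changed sign there. Of the values for the 113 genes of that rule, 1236 kept their side of the threshold, 28 passed it and 36 lost it, 30 of the latter under Bonferroni. Besides the muscle genes named above, Bonferroni adjustment removed the calls of Rsad2, Cmpk2, Psmb8, Psmb9, Postn, Cnn1, Col11a1, Col5a3, Foxd1 and Dhrs3. Those of Wnt9a, Edn1, Ptgs2, Arhgef28, Adamtsl2 and Nup210 were lost too. The median of the 11 tested macrophage, endothelial, epithelial and neuronal markers moved from -0.54 to -3.39 with a mean of at least 100. The latter value is that of Tubb3, so it does not describe the list as a whole. Map2, at 95.9 in the BAF250A table, did not reach that mean. No paired analysis was possible because the tables hold no values per library, and leaving out each replicate was not run for the same reason. Genes added after their values were seen were not run under the alternatives.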

Other observations

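Further genes outside the muscle lists differed strongly between the knockdowns. L1cam, a neural cell adhesion molecule, stood at 18.9 in BAF250A knockdown, 2190 in BRD9 knockdown and 1925 in controls (log2 difference -6.79 ± 0.80). Plcg2, a phospholipase of immune signalling, stood at 9.21, 711 and 608 (-6.20 ± 0.90). The neurofilament genes Nefl and Nefm, which are neighbours on chromosome 14 and were picked out after their values were seen, stood at 26.1 and 9.61 with BAF250A and at 1279 and 213 with BRD9, with differences of -5.56 ± 0.72 and -4.41 ± 0.78. Erbb3, a neuregulin receptor, and Nrg1, which encodes a neuregulin, differed in opposite directions (-4.75 ± 0.76 and 3.32 ± 0.73) and were also chosen after their values were seen. Erbb3 stood at 76.7 with BAF250A, 2384 with BRD9 and 213 in controls, and Nrg1 at 1716, 176 and 652. The opioid precursor gene Penk, also chosen after its value was seen, stood at 12583 in BAF250A knockdown, 24.2 in BRD9 knockdown and 78.6 in controls (8.85 ± 0.94, adjusted p 9.59e-17, z test). Its value in the authors' deposited BRD9 table, -1.53 (SE 0.81), did not pass the Wald test.

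The amino acid stress genes Chac1 and Trib3 had differences of 2.05 (95% interval 0.67 to 3.42) and 1.91 (0.43 to 3.39) that were not called. Both passed with errors correlated at 0.5 (adjusted p 0.0012 and 0.00759, z test), and Chac1 also passed under the empirical null (0.0202). H3c13, a histone gene with 85.7% of its words shared with other genes, was called at -6.17 ± 1.75, and its call was lost with the shrinkage undone (adjusted p 0.494, z test), with the correlation added to that (0.0747) and under Bonferroni adjustment.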
